A study of Equus caballus with 6 samples.

Results

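Cadherins and desmosomal proteins were examined in equine the lamellae of the horse hoof, where folded epidermis and dermis interlock and hang the coffin bone from the hoof wall, with laminitis and without. Of 10 genes of this group, 8 were represented by a probe set with a single matching gene symbol, giving 11 probe sets. The whole array held 24016 probe sets besides controls and 9155 named genes. These were CDH1, CDH2, CDH3, DSG1, DSC2, DSC3, JUP and PKP2, while DSG2 and DSP were not analysed here. A further probe set that carries the symbol of CDH3 together with that of a second gene was left out. The samples were right-foot lamellar tissue from 3 samples labelled laminitis (replicates 1, 3 and 4) and 3 labelled normal (replicates 2, 3 and 4), each read on 1 Affymetrix bovine GeneChip. The normal samples received no treatment named in the labels. How laminitis arose, the age and breed of the animals, and whether the 6 samples came from separate horses are not given in the sources used here, so the p-values speak only of how these samples vary, and that variation may be technical. The horse RNA was read by bovine probes, so a probe set that mismatches the horse transcript reads low, and levels of different probe sets are not comparable: where a ratio of 2 probe sets is given, only its difference between the groups is read. Where a gene had 2 probe sets, they are called the brighter and the dimmer one by their mean signal over the 6 arrays.

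Classical cadherins are transmembrane adhesion proteins whose outer domains bind the same cadherin on the neighbouring cell and whose tails hold catenins and, through them, actin. E-cadherin (CDH1) and P-cadherin (CDH3) belong to epithelia, P-cadherin mainly to basal cells, and N-cadherin (CDH2) to nerve, muscle, endothelium and many mesenchymal cells. Desmogleins (DSG) and desmocollins (DSC) are the cadherins of desmosomes, the spot-like junctions that give epidermis its tensile strength, and plakoglobin (JUP), plakophilins (PKP) and desmoplakin (DSP) tie them to keratin filaments. In the RefSeq gene table of a thoroughbred horse assembly, all 10 genes were present and several lay side by side. CDH3 and CDH1 had 0 protein-coding genes between them. CDH2, DSC3, DSC2, DSG1 and DSG2 followed each other on another chromosome, with 0 protein-coding genes between CDH2 and DSC3, 0 between DSC3 and DSC2, 1 between DSC2 and DSG1, and 2 between DSG1 and DSG2.

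Signals were taken as linear intensities, and median signals of the arrays ran from 86.7 to 96.6. Log2 values of the tested probe sets correlated between arrays at 0.81 to 0.88 (Pearson, across probe sets, which are not independent replicates). Normal arrays correlated with each other at 0.86 to 0.88 and laminitis arrays at 0.82 to 0.85. Laminitis replicate 4 correlated with the normal arrays at 0.84 to 0.85, with laminitis replicate 3 at 0.85 and with laminitis replicate 1 at 0.82. Laminitis replicate 1 correlated with the normal arrays at 0.81 to 0.82. Of 7 keratinocyte marker genes with a probe set, 6 were brighter than the array median on at least 3 arrays, among them KRT14 and KRT5. So were 8 of 8 fibroblast, 8 of 9 leukocyte and 6 of 6 skeletal muscle markers, each gene by its brightest probe set. Of all 24016 probe sets 12519 did so, and these counts therefore do not show which cell types were present. Probe sets brighter than the array median on at least 3 of 6 arrays were tested. There were 12519 of them, among which were 7 of the 11 for cadherins and desmosomal proteins. Limma, with p adjusted by Benjamini-Hochberg across everything tested, called 0 of 12519 (0% higher and 0% lower), so 0 cadherin or desmosomal probe sets passed. At an unadjusted p under 0.05, limma gave 4.82% higher and 4.97% lower. All differences below are laminitis minus normal.

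N-cadherin had the largest difference of the group, with every laminitis array below every normal array. The signal of CDH2 was 12.2, 28.9 and 42.9 on laminitis replicates 1, 3 and 4, and 106, 103 and 163 on normal replicates 2, 3 and 4. The highest laminitis value was thus well below the lowest normal value, and the laminitis signals were more spread out than the normal ones on the log2 scale, with an SD of 0.93 against 0.37. The geometric mean was 4.90-fold higher in normal tissue, a log2 difference of -2.29 ± 0.47 (SE, n = 3 per group), with an unadjusted 95% interval of -3.40 to -1.19. It did not pass over all probe sets (limma adjusted p = 0.254), and by unadjusted p it ranked 85 of 12519.

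The CDH2 probe set was dim in laminitis. It stood at percentiles 10.6, 25.2 and 31.6 of the probe sets on the laminitis arrays and at 53.1, 51.8 and 67.7 on the normal arrays. It was above the median on 0 laminitis and 3 normal arrays and so entered the test through the group in which it was high. The size of the fold depends on the background left in dim signals: with 16 added to every signal before log2 the difference was -1.71 (limma adjusted p = 0.161), and with 64 added it was -1.03 (limma adjusted p = 0.125). With 1 array left out it ranged from -2.69 without laminitis replicate 4 to -1.78 without laminitis replicate 1.

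**Figure D1:**
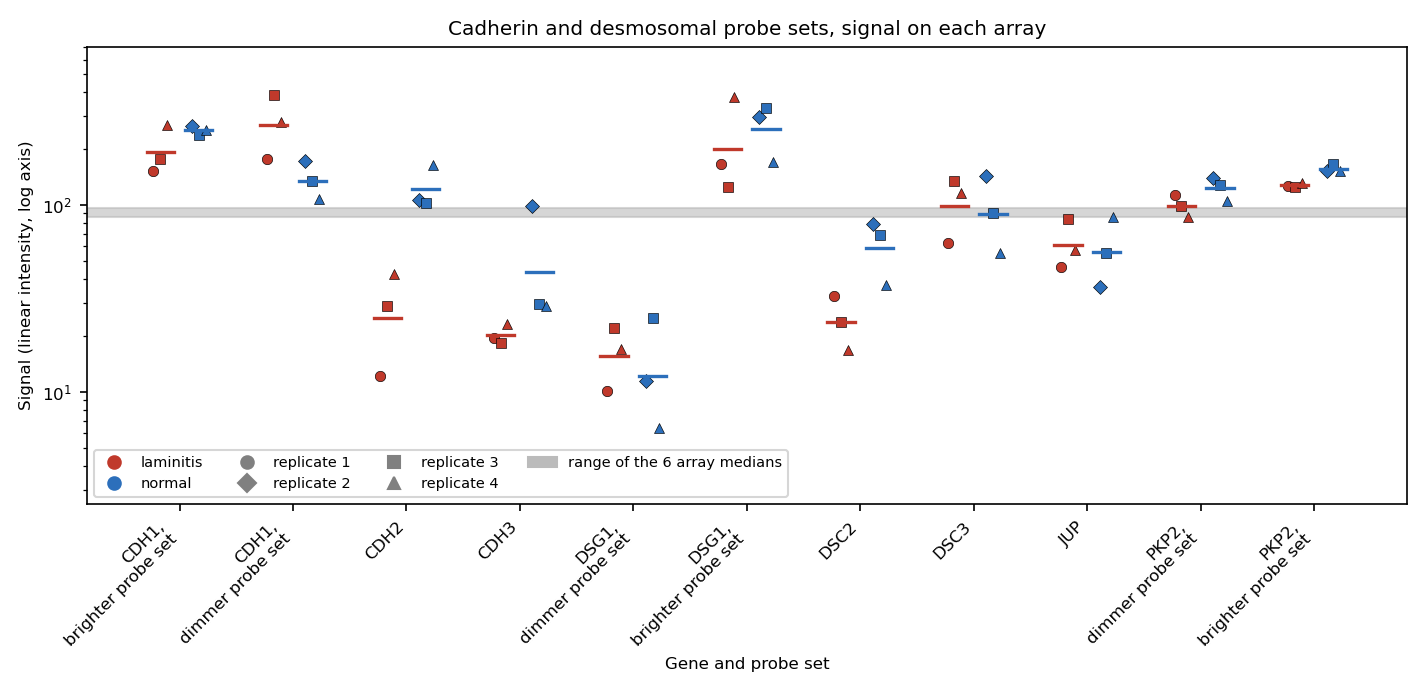
Signal of the 11 cadherin and desmosomal probe sets on each array (linear intensity on a log axis), with 3 laminitis arrays in red and 3 normal arrays in blue, the marker shape giving the replicate number and horizontal bars the geometric mean of a group; the grey band spans the 6 array medians. The CDH2 points of laminitis lie between 12.2 and 42.9 and those of normal tissue between 103 and 163, while the dimmer CDH1 probe set has its laminitis points above its normal ones.

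CDH2 transcripts can come from several cell types of the lamella, and in whole tissue fewer cells of a type and less RNA per cell cannot be told apart. Fibroblast markers, summed over 8 genes, ranged from 8682 to 30207 in laminitis and from 9223 to 31340 in normal tissue. Of their 12 tested probe sets 8 had a negative log2 difference and 4 a positive one, with a median of -0.26. DCN, the proteoglycan decorin, had signals of 724, 787 and 1199 in laminitis and 2365, 1685 and 4898 in normal tissue, with no overlap and a log2 difference of -1.61 ± 0.42 (limma adjusted p = 0.345). The brightest of these markers, the collagen I chains COL1A2 and COL1A1, which dominate the sum, had 0.35 ± 0.85 and 0.31 ± 0.74, with -0.48 and -0.42 by dimmer probe sets. Endothelial markers, summed over 9 genes, ranged from 710 to 1128 in laminitis and from 872 to 1011 in normal tissue, with TEK, VWF and TIE1 below the median on all 6 arrays. Smooth muscle and pericyte markers (8 genes) ranged from 3518 to 4717 in laminitis and from 4447 to 5668 in normal tissue, with MYH11 and RGS5 below the median on all arrays. Schwann and nerve markers (5 genes) ranged from 691 to 980 in laminitis and from 809 to 1067 in normal tissue, NCAM1 being below the median throughout. The smooth muscle protein TAGLN (-0.83 ± 0.34, limma adjusted p = 0.506) and the neurotrophin receptor NGFR (-0.93 ± 0.40, limma adjusted p = 0.517) also had every laminitis array below every normal array. NGFR lay under the array median on each laminitis array and over it on each normal array. Like CDH2, it thus entered the test through the group in which it was high. Of all tested probe sets 8.92% lay apart with laminitis lower. The fibroblast marker PDGFRA went the other way, with groups apart and laminitis higher (0.35 ± 0.20, limma adjusted p = 0.601). Negative and positive differences numbered 4 and 2 in the smooth muscle list and 4 and 1 in the Schwann list. Over all 12519 tested probe sets they numbered 7049 and 5470. Single markers of these 3 lists thus ran lower in laminitis and others higher, while the sums of the lists overlapped. Their part in the CDH2 difference was not tested. DCN, TAGLN, NGFR and PDGFRA were chosen after their values were seen.

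The named genes whose log2 signals ran most closely with CDH2 over the 6 arrays, of 7610 tested probe sets with a single symbol, were CIBAR1, RBM6, CDKN1C, PSKH1 and FMC1. Their Pearson r with CDH2 ran from 0.978 to 0.987 and their Spearman rho from 0.943 to 1. These are the highest of 7610 values over 6 arrays that also differ by group, so they are a description and have no p. CDKN1C, which encodes a cell cycle inhibitor, had signals of 143, 197 and 350 in laminitis and 495, 479 and 704 in normal tissue, a log2 difference of -1.36 ± 0.36 (limma adjusted p = 0.346). CIBAR1 had a difference of -1.11 ± 0.29 and PSKH1, at the other end, of -0.16 ± 0.18.

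E-cadherin was read by 2 probe sets that differed in direction. The signal of the dimmer CDH1 probe set was 177, 389 and 279 on laminitis replicates 1, 3 and 4, and 172, 133 and 107 on normal replicates 2, 3 and 4. Its groups did not overlap, although laminitis replicate 1 lay just above normal replicate 2. Its log2 difference was 0.99 ± 0.34, with a 95% interval of 0.20 to 1.78 (limma adjusted p = 0.456), or 1.99-fold higher in laminitis. With 1 array left out the difference ran from 0.72 without laminitis replicate 3 to 1.29 without laminitis replicate 1. The signal of the brighter CDH1 probe set was 152, 177 and 266 in laminitis and 264, 237 and 251 in normal tissue. Here the normal arrays lay close together and laminitis replicate 4 lay above all of them, so the groups overlapped. The log2 difference was -0.38 ± 0.25, with an interval of -0.97 to 0.22 (limma adjusted p = 0.655). It was -0.61 without laminitis replicate 4 and -0.21 without laminitis replicate 1.

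Set against each other on each array, the log2 ratio of the dimmer to the brighter CDH1 probe set was 0.22, 1.14 and 0.07 on laminitis replicates 1, 3 and 4, and -0.62, -0.83 and -1.23 on normal replicates 2, 3 and 4. The groups did not overlap, and the mean ratio was 0.48 ± 0.58 in laminitis and -0.89 ± 0.31 in normal tissue (SD, n = 3 each), a difference of 1.37 given with no test. The files give no single direction for CDH1, and which probe set follows the horse transcript more closely was not tested.

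The log2 ratio of CDH1 to CDH2 was higher on every laminitis array than on every normal array, with either CDH1 probe set. Both ratios divide by the same CDH2 probe set, which entered the test through the normal arrays, so 1 ratio is no independent support for the other. CDH2 by itself lay apart with laminitis lower, as did 8.92% of all tested probe sets. With the brighter probe set the log2 ratio of CDH1 to CDH2 was 3.64, 2.61 and 2.64 on laminitis replicates 1, 3 and 4, and 1.31, 1.20 and 0.63 on normal replicates 2, 3 and 4. The means were 2.96 ± 0.59 in laminitis and 1.05 ± 0.37 in normal tissue (SD, n = 3 each), a difference of 1.92. With the dimmer probe set the ratio was 3.87, 3.75 and 2.70 in laminitis and 0.70, 0.37 and -0.60 in normal tissue, a difference of 3.28. Levels of different probe sets are not comparable, so the ratio itself has no meaning and its difference between the groups is given as a description with no test. With the brighter probe set, the CDH1 part of the difference was negative and the CDH2 part was the larger, so the ratio differed through CDH2. With 64 added to every signal the difference was 0.75, or 1.78 with the dimmer probe set.

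**Figure D2:**
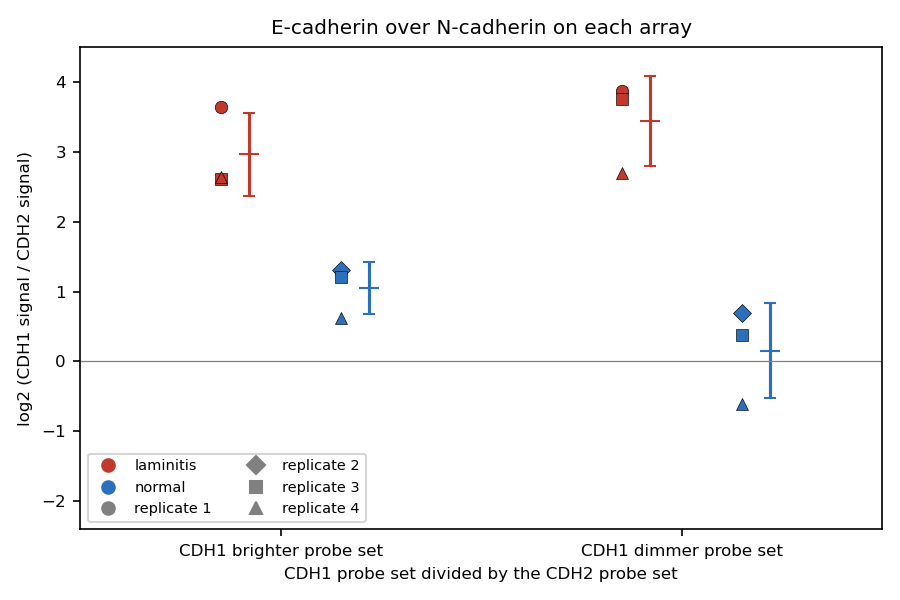
The log2 ratio of CDH1 signal to CDH2 signal on each array, for each of the 2 CDH1 probe sets, with the group mean and SD beside the 3 laminitis (red) and 3 normal (blue) points. All laminitis points lie above all normal points for both probe sets, from 2.61 upward against at most 1.31 for the brighter probe set. Both ratios divide by the same CDH2 signals.

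P-cadherin and desmocollin 2 were read by dim probe sets that were not tested, and for both every laminitis array lay below every normal array. The signal of CDH3 was 19.4, 18.1 and 23.0 on laminitis replicates 1, 3 and 4, and 98.1, 29.4 and 28.7 on normal replicates 2, 3 and 4. The gap between the groups was narrow, and normal replicate 2 alone was above the array median. The log2 difference of CDH3 was -1.12, and without normal replicate 2 it was -0.53. The signal of DSC2, a desmocollin of many epithelia, was 32.5, 23.7 and 16.8 in laminitis and 78.9, 68.9 and 37.1 in normal tissue. All 6 values lay below the array medians, and the lowest normal value, on replicate 4, was close to the highest laminitis value. The log2 difference of DSC2 was -1.32, or from -1.65 to -1.08 with 1 array left out, and -0.50 with 64 added. In a fit of all 24016 probe sets with no filter, the limma adjusted p was 0.678 for CDH3 and 0.559 for DSC2.

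The other desmosomal cadherins had overlapping groups. DSG1, desmoglein 1 of the upper epidermal layers, had signals by its brighter probe set of 165, 125 and 380 on laminitis replicates 1, 3 and 4 and of 296, 328 and 169 on normal replicates 2, 3 and 4. The highest value of all was a laminitis one, and the log2 difference was -0.35 ± 0.46 with an interval of -1.44 to 0.73 (limma adjusted p = 0.824). With 1 array left out it ranged from -0.82 without laminitis replicate 4 to -0.022 without laminitis replicate 3. The dimmer DSG1 probe set lay between 6.39 and 24.8 on all arrays, below every array median, and had a log2 difference of 0.35 with no test, which was -0.12 without normal replicate 4 and 0.86 without normal replicate 3. DSC3, desmocollin 3 of the lower layers, had signals of 62.5, 135 and 116 in laminitis and 144, 90.8 and 55.6 in normal tissue, a log2 difference of 0.14 ± 0.43 with an interval of -0.87 to 1.15 (limma adjusted p = 0.931). Its sign turned without laminitis replicate 3 (-0.078) or normal replicate 4 (-0.20). These intervals leave room for a difference of more than 1 on the log2 scale, so they do not show that DSG1 or DSC3 was alike in the groups.

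Plakophilin 2, a plaque protein of desmosomes in simple and some basal epithelia and in heart, had slightly lower signals in laminitis by both of its probe sets. The signal of PKP2 by its brighter probe set was 127, 125 and 131 on laminitis replicates 1, 3 and 4 and 152, 165 and 152 on normal replicates 2, 3 and 4. The arrays of a group lay close together and the groups did not overlap, yet the difference was small at -0.29 ± 0.17 on the log2 scale, with an interval of -0.71 to 0.12 (limma adjusted p = 0.621). The signal by the dimmer PKP2 probe set was 112, 99.2 and 85.7 in laminitis and 140, 127 and 105 in normal tissue. Laminitis replicate 1 lay above normal replicate 4, and the log2 difference was -0.33 ± 0.21 (limma adjusted p = 0.648). JUP, plakoglobin, which also serves adherens junctions, was dim and not tested, with signals of 46.4, 84.1 and 57.7 in laminitis and 36.3, 55.0 and 86.4 in normal tissue. Its log2 difference was 0.13, and it turned to -0.18 without normal replicate 2 and to -0.10 without laminitis replicate 3.

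**Figure D3:**
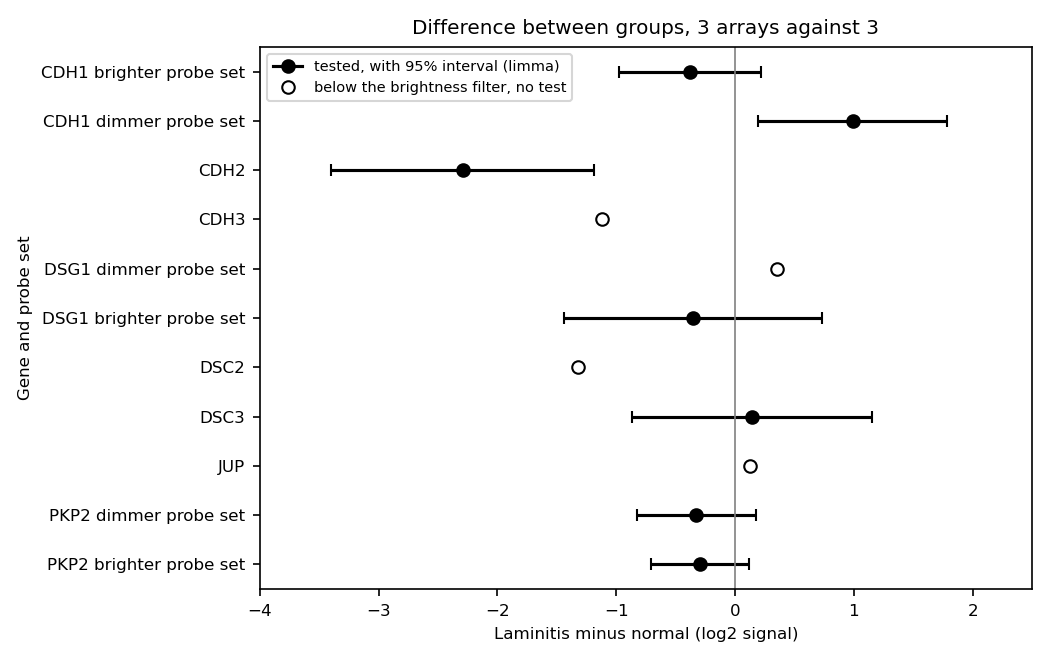
Log2 difference (laminitis minus normal) of each cadherin and desmosomal probe set; filled points were tested and have unadjusted 95% intervals from limma, open points lay under the brightness filter and have no test. The intervals of CDH2 (-3.40 to -1.19) and of the dimmer CDH1 probe set (0.20 to 1.78) do not include 0, and those of the other 5 tested probe sets do.

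Across all 11 probe sets, tested or not, 7 had a negative and 4 a positive log2 difference, with a median of -0.33. Over all 24016 probe sets the median was -0.066 and 43.7% had a positive difference. The groups did not overlap for 4 of the 11 with laminitis lower (36.4%: CDH2, CDH3, DSC2 and the brighter PKP2 probe set) and for 1 with laminitis higher (9.09%: the dimmer CDH1 probe set). Without a filter the groups did not overlap for 8.32% of probe sets with laminitis lower and 6.32% with laminitis higher. Over the 12519 tested probe sets these shares were 8.92% and 7.89%. Of the 4 lower ones, CDH3 and DSC2 were dim in both groups and CDH2 in laminitis.

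Other junction genes, from lists chosen with earlier results of these data known, gave 0 calls in limma in either direction. The same held for all 12519 tested probe sets, so this is no result about junction genes in particular. Of 10 further desmosomal genes 3 were tested. Their median log2 difference was -0.25, the value of PKP4, beside -0.056 over all tested probe sets. The plakophilins PKP3 and PKP4 had -0.34 ± 0.22 and -0.25 ± 0.20, while PKP1 went the other way with 0.078 ± 0.43. All 3 had overlapping groups. Of the catenins and adherens junction partners 8 of 22 genes were tested by 12 probe sets, 9 of them with a positive difference, with a median of 0.22. A positive difference was found for 43.7% of all tested probe sets. CTNNB1, the catenin that binds the cadherin tail and also carries Wnt signals, had signals from 15318 to 16573 in laminitis and from 11949 to 12534 in normal tissue. Its groups did not overlap, and its log2 difference was 0.36 ± 0.17 (limma adjusted p = 0.561), but it was 0.027 after quantile and -0.18 after cyclic loess normalization. RAC1, a small GTPase that acts on junctional actin, had 0.45 ± 0.18 (limma adjusted p = 0.494) by a probe set whose groups did not overlap and 0.17 ± 0.24 by another. The larger value became 0.15 after quantile and 0.20 after cyclic loess normalization. Groups lay apart with laminitis higher, as for CTNNB1 and this RAC1 probe set, in 7.89% of all tested probe sets. Of 26 other cadherins 6 were tested, with CDH23 at 1.08 ± 0.65, or 0.31 without normal replicate 4, and CDH17 at -0.37 ± 0.29, or -0.083 without laminitis replicate 3. The median of these cadherins was 0.25.

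Genes linked to the exchange of E-cadherin for N-cadherin also gave 0 calls among 7 tested of 12, with a median of 0.023. VIM, the mesenchymal filament vimentin, had signals of 4813, 2320 and 7018 in laminitis and 7144, 8945 and 11654 in normal tissue. The groups were apart by a narrow gap, and the log2 difference was -1.08 ± 0.42 (limma adjusted p = 0.494). FN1, fibronectin, had signals of 610, 262 and 541 in laminitis and 629, 679 and 909 in normal tissue, a difference of -0.72 ± 0.36 (limma adjusted p = 0.563). VIM and FN1 had every laminitis array below every normal array, as did 8.92% of all tested probe sets, while the other 5 genes of the list, TGFB1, ZEB1, OVOL1, ESRP1 and SNAI1, had overlapping groups. Without laminitis replicate 3 the difference was -0.64 for VIM and -0.35 for FN1. ZEB1 had 0.17 ± 0.42, OVOL1 -0.11 ± 0.27 and ESRP1 0.064 ± 0.22. TGFB1, a cytokine known to induce that exchange in cultured epithelia, had 1.33 ± 0.63, or 2.09 without normal replicate 4 and 0.88 without normal replicate 3, and the repressor of E-cadherin SNAI1 had 0.023 ± 0.87. Of the proteases that can cleave cadherins, ADAM10 had 0.50 ± 0.28, or 0.18 after quantile normalization, with 0.090 by another probe set, and ADAM9 0.0046 ± 0.26. Both lists thus held no gene past the test. Limma called 0 of all 12519 tested probe sets, so this tells nothing particular about these lists.

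Tight and gap junction genes had 6 of 13 genes tested and a median of 0.32. CLDN4, a claudin of tight junctions, had signals of 419, 308 and 375 in laminitis and 220, 229 and 248 in normal tissue, with no overlap and a difference of 0.65 ± 0.20 (limma adjusted p = 0.425). TJP1, the tight junction scaffold ZO-1, had signals of 48.0, 77.6 and 61.8 in laminitis and 109, 99.7 and 114 in normal tissue, with no overlap and a difference of -0.81 ± 0.23 (limma adjusted p = 0.383). TJP1 was below the array median on every laminitis array and above it on every normal one. It thus entered the test through the group in which it was high. Over all tested probe sets the groups did not overlap for 8.92% with laminitis lower and 7.89% with laminitis higher.

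**Figure D4:**
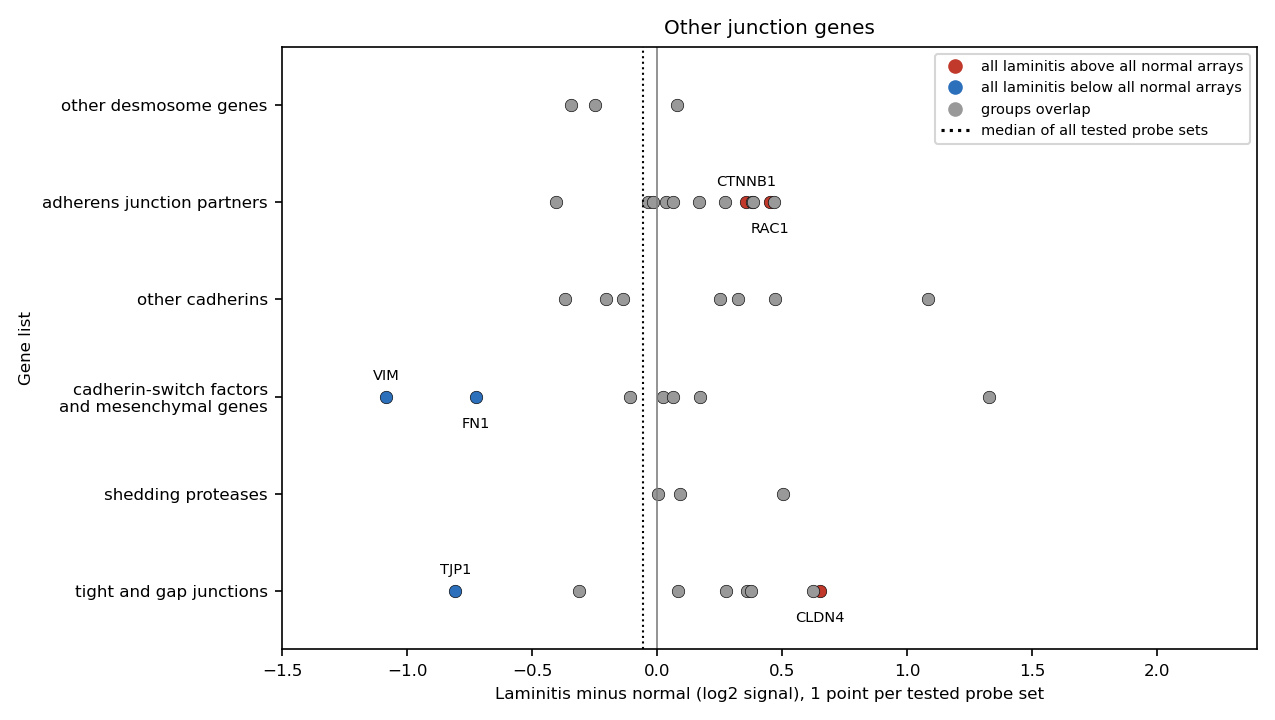
Log2 difference (laminitis minus normal) of the tested probe sets of 6 lists of other junction genes, 1 point per probe set, coloured by whether the groups of 3 arrays overlap; the dotted line is the median of all tested probe sets at -0.056. The named points have groups that do not overlap. They are VIM at -1.08, TJP1 at -0.81 and FN1 at -0.72 on the lower side, and CLDN4 at 0.65, RAC1 at 0.45 and CTNNB1 at 0.36 on the higher side.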

How the data were processed

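Total RNA from lamellar tissue of 3 laminitis and 3 normal samples was converted to biotin-labelled target and read on bovine GeneChips, per the labels' protocols; groups and replicate numbers come from the sample titles. The values deposited were taken to be intensities on a linear scale. They had a common level, with a trimmed mean of 150.02 to 150.03 on each array. The submitters' processing notes name GCRMA, which gives log2 values, so the step that made these values is not settled. Detection calls were not used here. Of 24128 probe sets, 112 controls were left out. Symbols are those of the platform annotation, which is bovine and can be old: 13292 probe sets had 1, 86 several and 10638 none.

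Log2 values with no offset were compared with lmFit and eBayes in limma 3.58.1 (R 4.3.3), two-sided, threshold 0.05 after Benjamini-Hochberg adjustment over the tested probe sets, with a prior of 3.02 degrees of freedom. Every probe set was kept apart. The procedure was tested on simulated data. Members, gene lists and rules were chosen with earlier results of these data known. All 10 genes are described; of each other junction list the 2 genes of smallest p are named, with other genes and second probe sets added after their values were seen. The number of arrays limits the precision.

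Alternatives were other filters, offsets of 16 and 64, quantile, median and cyclic loess normalization, other variance models, a replicate block and leaving out each array; the second CDH1 probe set in the CDH1 to CDH2 ratio was added after seeing the data.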

Additional observations from a re-analysis of the deposited data

How the results depend on the processing

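Over 18 alternatives there were 129 values of cadherin and desmosomal probe sets with a limma test, of which 0 passed the threshold. CDH2, DSC3 and the dimmer PKP2 probe set were not tested under the strictest filter, and CDH3, DSC2, JUP and the dimmer DSG1 probe set only where a looser filter let them in. Filters leave the log2 difference itself as it is, and the intensity trend and ordinary model do too. Among tested probe sets DSC3 turned in sign with 1 array left out (lowest -0.20, highest 0.48). DSC2 was -0.50 with 64 added. CTNNB1 (-0.18) and ADAM9 (-0.0067) turned in sign after cyclic loess normalization, and ADAM9 ranged from -0.20 to 0.24 with 1 array left out. The cause was not tested. Over all probe sets, limma called 6 among those above the median on all 6 arrays, 1 among those above the 25th percentile on at least 3, 4 with an intensity trend and robust variance, and 0 to 2 with 1 array left out. The difference in the CDH1 to CDH2 ratio was 1.36 with 16 added and 0.75 with 64 added, since an offset shrinks differences of dim signals, and 1.58 to 2.09 with 1 array left out. Only numbers 3 and 4 occur in both groups. Deviations of same-numbered arrays correlated at -0.017 and -0.031, so the numbers were not taken as pairs; with the replicate block limma called 0 probe sets and the CDH2 difference was -1.88 (limma adjusted p 0.303). Over all alternatives in which it was tested, the adjusted p of CDH2 ranged from 0.125 to 0.591.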
